A study of Macaca mulatta with 19 samples.

Results

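A set of 9 genes of chromatin remodelling, histone demethylation and nuclear receptor coactivation was followed in luteinized granulosa cells of 19 rhesus macaques: ARID1A, ARID1B, ARID5B, JMJD1C, NCOA1, NCOA2, NCOA3, SKI and HBP1. They were found by symbol, 9 of 32386 genes in the count table, and all 9 passed the filter on low counts. Of these, 6 (ARID1B, ARID5B, JMJD1C, NCOA2, SKI and HBP1) were chosen by their measured values, which were higher in Chow+T than in Chow+C or WSD+T. Their differences between Chow+T and those groups, and the testosterone by diet interaction, are therefore given as a description without a test. ARID1A, NCOA1 and NCOA3 were added as relatives of the others, and their differences were tested in each comparison.

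The cells came from the aspirated contents of the follicle that each animal had selected for ovulation, 1 library per animal. Chow+C animals ate a standard diet and carried cholesterol implants (n = 4), Chow+T animals ate the same diet and carried testosterone implants that raised testosterone 4 to 5 fold over cholesterol (n = 4), WSD+C animals ate a Western-style diet with cholesterol implants (n = 5), and WSD+T animals had that diet and testosterone (n = 6). Treatment began near menarche and lasted about 3.5 years, with 10 animals enrolled per treatment, and no group carried a transgene or deletion. The labels also class the oocyte of the same follicle. Chow+C held 3 MI (metaphase I) and 1 MII (metaphase II) oocytes, Chow+T held 2 MII, 1 degenerating and 1 GV (germinal vesicle), WSD+C held 3 MI and 2 degenerating, and WSD+T held 2 MI, 1 MII and 3 degenerating. Libraries are named by group and number, so that Chow+T 3 is the third Chow+T animal in the order of the samples.

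SWI/SNF complexes use the energy of ATP to move nucleosomes, and ARID1A and ARID1B are alternative subunits of one form of them. ARID5B is a DNA-binding protein of the same domain family that works with a histone demethylase, and JMJD1C belongs to the JmjC demethylases. NCOA1, NCOA2 and NCOA3 form the steroid receptor coactivator family, which docks on hormone-bound nuclear receptors and brings the acetyltransferases EP300 and CREBBP to the gene. SKI represses transcription with SMAD proteins downstream of TGF-beta, and HBP1 is a repressor of Wnt targets and of cell cycle entry. Granulosa cells respond to ovarian steroids and gonadotropins through such receptors and their cofactors as they luteinize.

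Gene counts ranged from 28832132 to 56385679 per library. Of 14 granulosa markers 11 were found, and 10 of these reached 1 CPM (gene counts per library total, scaled by TMM) in all 19 libraries. Their summed level was 1011 CPM in WSD+C 4 and 3970 to 14429 CPM elsewhere. WSD+C 4 also stood apart by blood markers: its erythroid genes summed to 155380 CPM, against at most 4407 CPM in the others. Leukocyte markers (11 of 12 found) summed to 2129 CPM in WSD+C 4 and 1700 CPM in WSD+T 6, with medians of 37.6, 24.5, 22.2 and 38.8 CPM in Chow+C, Chow+T, WSD+C and WSD+T. Of those 11, RAC2 was at 0 in every library, and 3 reached 1 CPM in all of them. Macrophage markers (13 of 14 found) spanned 11.5 to 2857 CPM, lymphocyte markers (12 of 13) 0.432 to 360 CPM, oocyte markers (11 of 12) 2.27 to 236 CPM, and theca and stroma markers (10 of 10) 81.0 to 362 CPM. In Chow+C 2, 49.1% of reads fell in genes and mitochondrial genes took 17.9% of gene counts. In such bulk libraries fewer cells of a type and less RNA per cell cannot be told apart.

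ARID5B spanned the widest range of the 9 genes, 6.97-fold from its lowest to its highest library. It stood at 169, 150, 190 and 372 CPM in Chow+C 1 to 4 and at 480, 526.04, 1043 and 361 CPM in Chow+T 1 to 4. In WSD+C 1 to 5 it was at 297, 219, 360, 219 and 301 CPM, and in WSD+T its lowest, median and highest values were 187, 265 and 444 CPM. Chow+T 1, 2 and 3 exceeded all 15 libraries outside Chow+T, while the GV library Chow+T 4 lay below Chow+C 4. Group means were 220 ± 103 (SD, n = 4), 603 ± 302 (n = 4), 279 ± 60.1 (n = 5) and 291 ± 104 CPM (n = 6) in Chow+C, Chow+T, WSD+C and WSD+T. The fitted difference of Chow+T from Chow+C was 1.45 on the log2 scale (SE 0.371), or 2.73-fold, and that of WSD+T from Chow+T was -1.05 (SE 0.327). Without Chow+T 3 these were 1.05 and -0.64.

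HBP1 was at 83.0, 71.0, 64.5 and 111 CPM in Chow+C 1 to 4 and at 110, 158, 200 and 109 CPM in Chow+T 1 to 4. WSD+C 1 to 5 gave 98.3, 99.5, 74.4, 63.0 and 99.7 CPM, and WSD+T ran from 62.1 through a median of 79.4 to 108 CPM. Every Chow+T library was above every WSD+C and WSD+T library, though Chow+C 4 exceeded the 2 lower Chow+T values. The means were 82.4 ± 20.6, 144 ± 43.4, 87.0 ± 17.2 and 80.8 ± 15.03 CPM in Chow+C, Chow+T, WSD+C and WSD+T. Chow+T exceeded Chow+C by a fitted 0.81 log2 units (SE 0.233).

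ARID1B varied less within each of the other groups than within Chow+T. Its values were 70.9, 93.8, 77.7 and 87.8 CPM in Chow+C 1 to 4 and 88.7, 138, 141 and 82.2 CPM in Chow+T 1 to 4. WSD+C 1 to 5 lay within 71.9 to 80.5 CPM (mean 75.1 ± 3.28) and WSD+T within 65.3 to 81.1 CPM (mean 71.4 ± 6.52). All 4 Chow+T libraries were above both WSD groups, 2 of them by a small margin, but Chow+C 2 exceeded Chow+T 1 and 4. The coefficient of variation was 12.4% in Chow+C, 4.37% in WSD+C, 9.14% in WSD+T and 28.0% in Chow+T. The fitted difference was 0.45 (SE 0.167) for Chow+T minus Chow+C and -0.66 (SE 0.1502) for WSD+T minus Chow+T.

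ARID1A, the alternative to ARID1B in the complex, was at 109, 186, 168 and 131 CPM in Chow+C 1 to 4 and at 121, 182, 145 and 112 CPM in Chow+T 1 to 4. WSD+C 1 to 5 had 117, 108, 135, 225 and 131 CPM, and WSD+T a lowest of 102, a median of 127 and a highest of 139 CPM. The highest value belonged to WSD+C 4, and every pair of groups overlapped. Chow+T minus Chow+C was -0.08 (95% confidence interval -0.57 to 0.40, adjusted p = 0.955 by edgeR's quasi-likelihood test), and it was 0.04 without Chow+C 2. Whether the paralogs differ was not tested.

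JMJD1C was the most variable gene, with a coefficient of variation of 71.6% over all libraries, followed by ARID5B at 59.8%. It stood at 27.1, 34.9, 36.2 and 48.3 CPM in Chow+C 1 to 4 and at 48.5, 112, 162 and 33.8 CPM in Chow+T 1 to 4. In WSD+C 1 to 5 it was at 29.0, 31.1, 31.2, 134 and 45.1 CPM, and WSD+T spanned 32.6 to 53.2 CPM with a median of 40.1 CPM. Only 3 libraries exceeded the 53.2 CPM of WSD+T 6: the MII libraries Chow+T 2 and 3, and WSD+C 4. The last carried the strongest blood, oocyte and theca and stroma marker signal. Chow+T minus Chow+C was 1.28 (SE 0.494). WSD+T minus Chow+T was -1.13 (SE 0.438). Without Chow+T 3 these were 0.82 and -0.67, and with oocyte class as a term, in a fit that drops the GV library, the first was 0.87.

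SKI was at 29.1, 31.8, 27.5 and 26.4 CPM in Chow+C 1 to 4 and at 36.7, 43.4, 46.8 and 28.7 CPM in Chow+T 1 to 4. It averaged 27.3 ± 4.63 CPM in WSD+C, where WSD+C 4 was highest at 35.1 CPM, and 25.8 ± 3.70 CPM in WSD+T. Again 3 of 4 Chow+T libraries were above every other library and the GV library was not. The fitted differences were 0.44 (SE 0.171) for Chow+T minus Chow+C and -0.59 (SE 0.155) for WSD+T minus Chow+T.

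Among the steroid receptor coactivators only NCOA2 was one of the chosen genes. It read 34.2, 29.1, 37.1 and 34.1 CPM in Chow+C 1 to 4 and 38.0, 58.7, 57.0 and 36.4 CPM in Chow+T 1 to 4. WSD+C ranged from 29.4 to 39.4 CPM and WSD+T from 24.6 to 38.0 CPM. The 2 MII libraries of Chow+T stood above all others, and the other 2 Chow+T libraries lay inside the range of WSD+C. Chow+T minus Chow+C was 0.50 (SE 0.183).

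NCOA1 was at 205, 114, 185 and 229 CPM in Chow+C 1 to 4 and at 195, 227, 365 and 265 CPM in Chow+T 1 to 4. WSD+C 1 to 5 had 207, 166, 227, 70.3 and 178 CPM, and WSD+T 1 to 6 had 237, 244, 89.1, 236, 203 and 84.6 CPM. The 3 lowest values fell in WSD+C 4, WSD+T 6 and WSD+T 3, the libraries with the highest leukocyte marker scores. Chow+T minus Chow+C was 0.52 (95% confidence interval -0.29 to 1.34, edgeR adjusted p = 0.770), and it was 0.32 without Chow+T 3.

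NCOA3 went the other way between libraries. It was at 25.5, 55.4, 38.9 and 28.1 CPM in Chow+C 1 to 4, at 26.04 to 33.8 CPM in Chow+T and at 22.4 to 40.3 CPM in WSD+T. WSD+C 4 held 76.8 CPM against 25.5 to 31.5 CPM in the other 4 WSD+C libraries. Chow+T minus Chow+C was -0.31 (95% confidence interval -1.005 to 0.39, edgeR adjusted p = 0.861), and without Chow+C 2 it was -0.04.

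**Figure D1:**
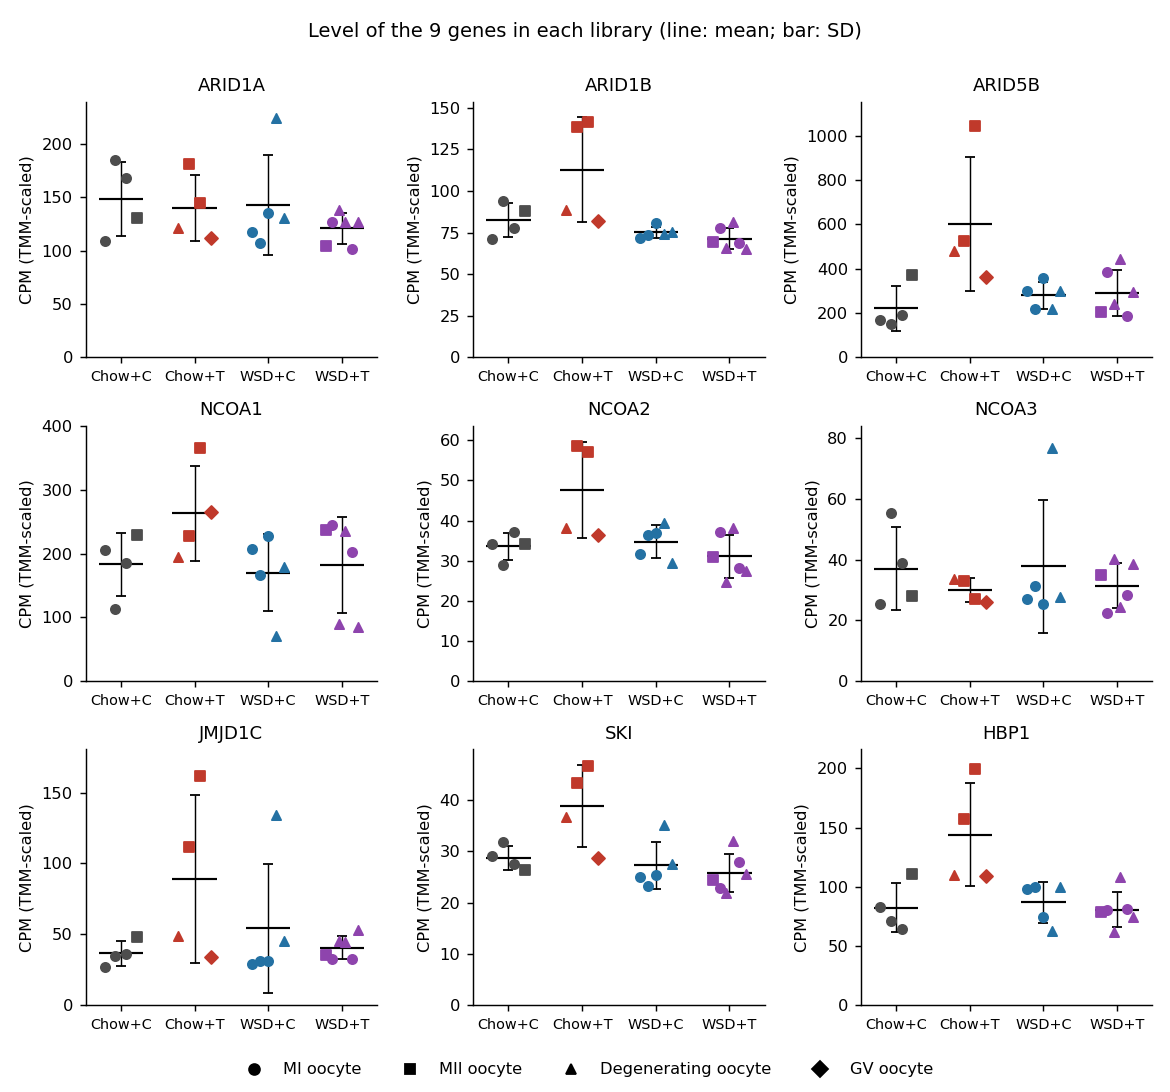
TMM-scaled CPM of each gene by treatment group, 1 point per library with the shape giving the oocyte class, and the group mean (line) and SD (bar). In ARID5B and SKI, 3 of 4 Chow+T libraries lie above all others, and in NCOA2 and ARID1B the 2 Chow+T libraries with MII oocytes do.

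The high Chow+T values came mainly from a pair of animals. Ranked over 19 libraries, Chow+T 3 was first in 5 of the 6 chosen genes and second in NCOA2, and Chow+T 2 was among the top 3 in all 6. Their mean standardised level (in SDs from the mean of 19 libraries) was 2.45 and 1.91. Chow+T 1, with a degenerating oocyte, ranked 3 to 5 and averaged 0.60, and Chow+T 4, with the GV oocyte, ranked 5 to 13 and averaged 0.09. Both leading animals had MII oocytes. Their granulosa markers summed to 12084 CPM in Chow+T 3 and 3970 CPM in Chow+T 2, the lowest sum after WSD+C 4, and their leukocyte scores (mean log2 CPM) were 0.48 and 1.90, whose part in these values was not tested. The other 2 animals with MII oocytes averaged 0.16 (Chow+C 4) and -0.66 (WSD+T 1, ranks 11 to 16).

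**Figure D2:**
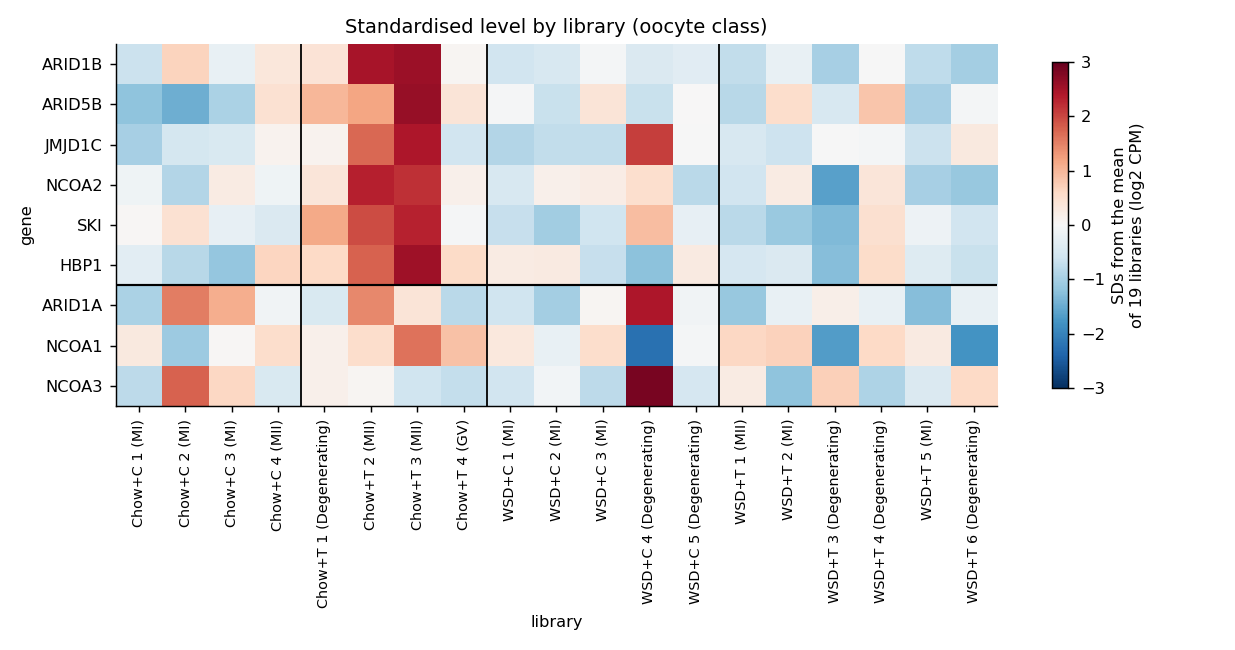
Level of each gene in each library as SDs from its mean over 19 libraries, on log2 CPM, with the 6 chosen genes above the line and ARID1A, NCOA1 and NCOA3 below. The columns of Chow+T 2 and Chow+T 3 are high throughout the chosen genes, and WSD+C 4 is high in ARID1A, NCOA3 and JMJD1C and low in NCOA1.

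With no overlap of libraries, 3 of the 9 genes (ARID1B, ARID5B and HBP1) were higher in Chow+T than in WSD+C, where 0.539% of 15019 tested genes were. ARID1B and HBP1 (2 of 9) were also higher throughout than in WSD+T, where 0.586% of genes were, and 0 of 9 were higher throughout than in Chow+C, where 1.32% were. The choice of members used Chow+T, so nothing is read from these counts.

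Among the differences that did not themselves choose the members, no treatment difference passed the test. For the chosen genes, each of those treatment comparisons still used Chow+C or WSD+T libraries, whose values entered the choice. By edgeR's quasi-likelihood test with Benjamini-Hochberg adjustment, 0 of 54 tested values of the 9 genes passed 0.05, and 0% of all genes did in any of the 8 comparisons. At an unadjusted p under 0.05, 0 of 9 members differed for WSD+C minus Chow+C (5.08% of all genes did), 0 of 9 for WSD+T minus Chow+C (6.75%) and 0 of 9 for WSD+T minus WSD+C (3.86%). Of ARID1A, NCOA1 and NCOA3, 0 of 3 did for Chow+T minus Chow+C (7.18% of all genes), WSD+T minus Chow+T (4.97%) or the interaction (4.52%). DESeq2 called 5, 3, 4 and 3 genes of the whole table for Chow+T minus Chow+C, WSD+T minus Chow+C, WSD+T minus Chow+T and the interaction. None of these calls was a tested value of a member. Whether they held a chosen gene in the contrasts that chose it was not read out.

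Between WSD+T and WSD+C, the fitted log2 difference was -0.07 in ARID1B (95% confidence interval -0.37 to 0.23), -0.08 in SKI (-0.39 to 0.23) and -0.11 in HBP1 (-0.52 to 0.31). For ARID5B the difference was 0.06 (-0.59 to 0.72) and for JMJD1C -0.41 (-1.29 to 0.46), the latter turning to 0.26 without WSD+C 4. The interaction, fitted as the testosterone difference on Western-style diet minus that on chow, was -1.39 in ARID5B (SE 0.479), -1.69 in JMJD1C (SE 0.644; -1.02 without WSD+C 4), -0.91 in HBP1 (SE 0.305), -0.66 in NCOA2 (SE 0.240), and -0.52 in both ARID1B (SE 0.219) and SKI (SE 0.225), given as a description.

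JMJD1C had separate ranges in 2 oocyte classes. In the 8 MI libraries it lay between 27.1 and 36.2 CPM (mean 31.9 ± 2.96, SD), and in the 6 degenerating libraries between 44.5 and 134 CPM (median 46.9). The classes did not overlap, which held for 1 of the 9 genes and for 0.0668% of 14976 tested genes in that direction, 10 in all. These ranges take no account of treatment. The MI class held 3 Chow+C and 2 WSD+T libraries and none of Chow+T, and the degenerating class held 1 Chow+T and 3 WSD+T libraries. JMJD1C was chosen on these groups, so nothing is read from this count. In the MII libraries JMJD1C was at 48.3 CPM (Chow+C 4), 112 and 162 CPM (Chow+T 2 and 3) and 35.6 CPM (WSD+T 1), so that only WSD+T 1 fell within the MI range. The GV library was at 33.8 CPM.

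With the treatment group as a term and the GV library left out, JMJD1C was higher in degenerating than in MI libraries by 0.85 log2 units (SE 0.315), or 1.81-fold, at an unadjusted p = 0.0163 and an adjusted p = 0.249 (edgeR). It was 1 of 9 members at an unadjusted p under 0.05, where 14.3% of all genes were. Leukocyte markers moved with the same contrast: 10 of 10 tested markers were higher at an unadjusted p under 0.05, with a median log2 difference of 5.44, as were 13 of 13 macrophage markers. The leukocyte score (mean log2 CPM of those markers) spanned -1.66 to 1.503 in MI and -0.82 to 5.97 in degenerating libraries. With that score as a covariate the JMJD1C difference was 0.04, and without WSD+C 4 it was 0.40. Chow+T 1, the degenerating library with the lowest leukocyte score, held 48.5 CPM of JMJD1C, above all 8 MI libraries. JMJD1C was chosen for high values in Chow+T, and no MI library came from Chow+T, so nothing is read from this value or from the fitted difference. The part of leukocyte RNA in the difference was not tested.

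For MII minus MI, JMJD1C was higher by 0.96 (SE 0.415, unadjusted p = 0.0355, edgeR adjusted p = 0.9995), again 1 of 9 members, against 3.91% of all genes. No member was higher in every MII library than in every MI library, as 0.227% of genes were. The difference was 0.49 without Chow+T 1, 1.43 without WSD+T 1 and 0.42 once the leukocyte score was a covariate. HBP1 followed at 0.38 (95% confidence interval -0.10 to 0.86) and ARID5B at 0.52 (-0.27 to 1.32), neither past an unadjusted 0.05. Without Chow+C 4 the ARID5B value was -0.04. JMJD1C, HBP1 and ARID5B were chosen for high Chow+T values, which came mainly from Chow+T 2 and Chow+T 3. Both were MII libraries and no MI library came from Chow+T, so nothing is read from these differences.

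NCOA1 and NCOA3 had opposite signs between degenerating and MI libraries, neither past the threshold. NCOA1 was lower by a fitted -0.63 (95% confidence interval -1.26 to 0.01, unadjusted p = 0.0532, edgeR adjusted p = 0.358). NCOA3 gave 0.54 (-0.04 to 1.13, unadjusted p = 0.0675, adjusted p = 0.384). Without WSD+C 4 the values were -0.43 and 0.17, and once the leukocyte score was a covariate they were -0.15 and 0.08.

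**Figure D3:**
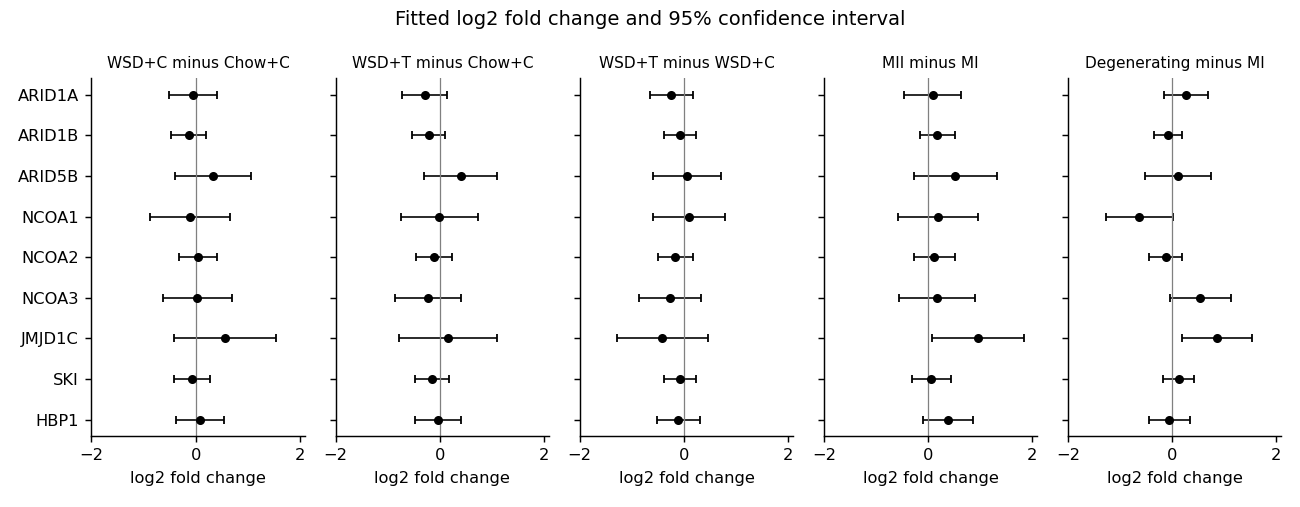
Fitted log2 fold change with its 95% confidence interval for the 9 genes in the 5 comparisons that did not choose them. The intervals are not adjusted for the number of genes. Those of JMJD1C for MII minus MI and for degenerating minus MI lie above 0 (edgeR adjusted p = 0.9995 and 0.249), and each other interval includes 0. Both fits hold Chow+T libraries, on which JMJD1C was chosen, so nothing is read from its intervals there.

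The coactivators NCOA1 and NCOA3 mirrored each other from library to library. After the group means were subtracted from log2 CPM, Pearson's r was -0.85 over 19 libraries and its permutation p was 1e-05, the lowest value possible with 100000 permutations (0.00036 after adjustment over 36 pairs). Spearman's rho was -0.77, with a permutation p of 0.00014 (0.00504 adjusted). Without WSD+C 4 and WSD+T 6, the libraries farthest from the median of NCOA1, r was -0.79. Of all other genes 0.493% were as negative with NCOA1, and 2.08% were as negative with NCOA3. NCOA2 followed neither of them closely (r = 0.36 with NCOA1 and -0.13 with NCOA3).

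Of the 36 pairs, 16 passed an adjusted 0.05 by Pearson's r and 3 of these also by Spearman's rho, and 6 of the 16 kept a size of 0.5 or more without their 2 farthest libraries. For these 16, the share of other genes with an r at least as extreme and of the same sign varied widely. It ran from 0.24% (with SKI, for JMJD1C and SKI) to 18.9% (with NCOA3, for NCOA3 and HBP1). Whether 16 exceeds the count for other sets of genes was not tested. The other 2 pairs that passed by both measures were ARID1A with JMJD1C and ARID1B with NCOA2. ARID1A with JMJD1C gave r = 0.74 at a permutation p of 0.00037 (0.00444 adjusted) and rho = 0.71 at 0.00092 (0.0166 adjusted), and r fell to 0.54 without Chow+T 2 and WSD+C 4. ARID1B with NCOA2 gave r = 0.70 at a permutation p of 0.00066 (0.00583 adjusted) and rho = 0.66 at 0.00312 (0.0374 adjusted), and r was 0.59 without Chow+T 3 and Chow+T 4. Among the 6 chosen genes all 15 pairs were positive, from 0.18 (JMJD1C with HBP1) to 0.73 (JMJD1C with SKI), with a median of 0.53. The 6 genes were chosen for high Chow+T values, which came mainly from Chow+T 2 and Chow+T 3. Those 2 libraries enter each of these correlations, so nothing is read from their shared sign. ARID1B and NCOA2, both chosen, fall under the same limit, and their r without Chow+T 3 and Chow+T 4 still holds Chow+T 2. The median size of r with all genes ran from 0.18 for ARID1B to 0.45 for NCOA3 (15010 genes), with ARID1A at 0.41 and NCOA1 at 0.42.

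Leukocyte signal moved with some of these genes. With the leukocyte score, JMJD1C had r = 0.71 at a permutation p of 0.00109 (0.0294 adjusted over 27 relations) and rho = 0.71 at 0.00123 (0.0332 adjusted). Leaving out WSD+C 4 and WSD+T 6 gave r = 0.52. NCOA1 had r = -0.67 at a permutation p of 0.00252 (0.034 adjusted), but rho = -0.47 at 0.0426 (0.271 adjusted), and r was -0.28 without those 2 libraries, on which the relation rests. ARID1A had r = 0.58 at a permutation p of 0.0102 (0.0915 adjusted) and NCOA3 r = 0.57 at 0.014 (0.0942 adjusted), which were 0.33 and 0.08 without the same 2 libraries. SKI (0.38), HBP1 (-0.23), NCOA2 (0.07), ARID1B (0.02) and ARID5B (0.01) did not pass either. The shares of mitochondrial and no-feature reads passed with 0 of 9 genes. The part of leukocyte RNA in the JMJD1C values was not tested beyond these figures.

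**Figure D4:**
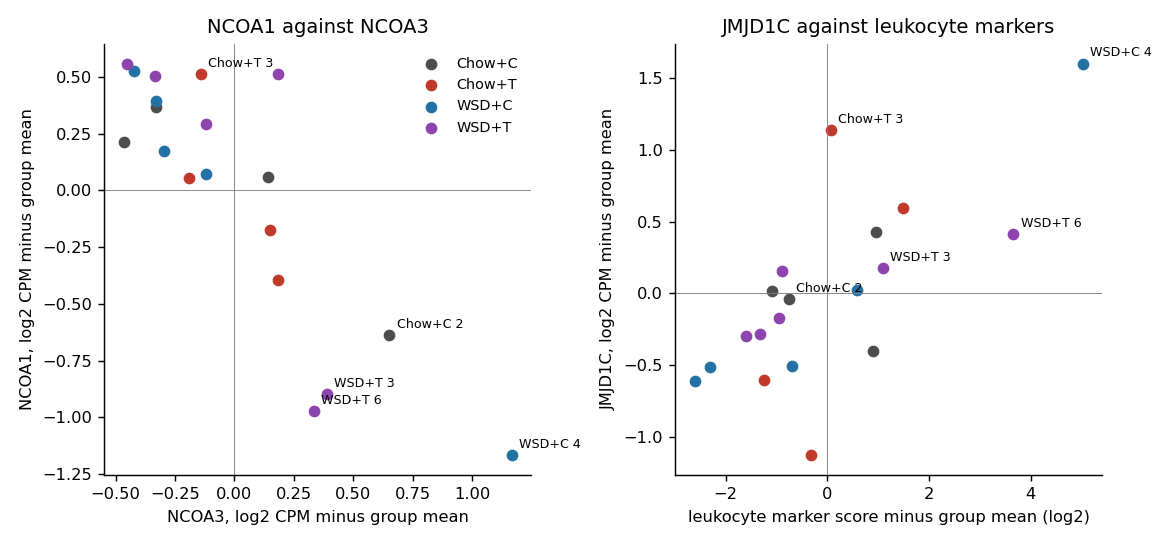
Left, NCOA1 against NCOA3, and right, JMJD1C against the leukocyte marker score, each as log2 values minus the group mean, 1 point per library coloured by group. NCOA1 is low where NCOA3 is high (r = -0.85), and WSD+C 4 and WSD+T 6 lie at the high end of the leukocyte score.

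By Pearson's r after subtraction of group means, over 19 libraries and 8406 candidate genes, FAM53C was most like the mean standardised level of the 6 chosen genes (r = 0.90), then CWC25 (0.87), KLHL21 (0.85), ETV3 (0.84) and TOX4 (0.84). FAM53C averaged 58.0 ± 8.66, 104 ± 42.0, 62.1 ± 10.2 and 64.6 ± 14.6 CPM in Chow+C, Chow+T, WSD+C and WSD+T. The closest gene to each member was FAM63A for ARID1A (0.93), TOX4 for ARID1B (0.86), G3BP2 for ARID5B (0.85), PTP4A1 for JMJD1C (0.89) and HIPK1 for NCOA2 (0.90). For NCOA1 it was VLDLR (0.94), the very low density lipoprotein receptor, for NCOA3 ZMIZ2 (0.95), for SKI ZBTB11 (0.86) and for HBP1 RAB5A (0.89), a small GTPase of early endosomes. These values describe 19 libraries, and the high Chow+T 2 and Chow+T 3 enter each of them.

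The partners of these genes were read from lists, with counts at an unadjusted p under 0.05 because 0 members of any list passed the edgeR adjusted threshold. For Chow+T minus Chow+C, 2.32% of all genes were higher and 4.87% lower at that level, and every list count below is to be read against the share of its own comparison. In that comparison 4 of 26 SWI/SNF subunits were lower and 0 higher: SS18L1 (-0.78), BRD9 (-0.50), BICRA (-0.48) and the ATPase SMARCA4 (-0.32). Their Chow+C values were spread more widely than those of Chow+T. In Chow+C and Chow+T, SS18L1 averaged 18.1 ± 10.5 and 10.5 ± 2.15 CPM and BRD9 60.0 ± 25.2 and 42.5 ± 9.01 CPM. BICRA averaged 20.3 ± 7.31 and 14.6 ± 2.60 CPM, and SMARCA4 135 ± 26.1 and 108 ± 6.45 CPM. The list's median was 0.02, against -0.02 over all genes. Other ARID family genes had 0 of 11 at that level and a median of 0.18.

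Of 21 JmjC demethylases, KDM6A, which removes methyl groups from lysine 27 of histone H3, was higher (0.71, SE 0.312), and KDM8 (-0.80) and RIOX1 (-0.93) were lower, with a median of -0.05. KDM6A averaged 76.1 ± 22.3 CPM in Chow+C and 124 ± 41.7 CPM in Chow+T. Of 20 coactivator partners, the acetyltransferase CREBBP (0.56) and the Mediator subunit MED13 (0.40) were higher and PPARGC1A (-1.63) was lower, with a median of 0.12. CREBBP averaged 91.2 ± 14.6, 135 ± 31.1, 104 ± 26.6 and 92.4 ± 16.2 CPM in Chow+C, Chow+T, WSD+C and WSD+T. Corepressors had 0 of 19 and a median of 0.15.

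Of 31 tested nuclear receptors, NR4A3, an orphan receptor of immediate early response, was higher in Chow+T (3.20), with Chow+C at 1.40 ± 0.939 CPM and Chow+T at 12.9 ± 11.4 CPM. Of 21 genes around SKI and the SMAD proteins, SKIL, the closest relative of SKI, was higher (0.81), as was the corepressor TGIF1 (0.65), and the median was 0.20. SKIL averaged 108 ± 35.7, 189 ± 75.3, 92.5 ± 27.5 and 92.1 ± 22.6 CPM in Chow+C, Chow+T, WSD+C and WSD+T. HBP1 partners and Wnt genes had 0 of 19 and a median of 0.01.

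For WSD+T minus Chow+T, which shares the Chow+T libraries, 2.20% of all genes were higher and 2.77% lower. Of 21 SKI and SMAD genes 1 was higher and 4 were lower: SKIL (-1.03), RNF111 (-0.60), SMAD5 (-0.28) and SMAD4 (-0.27). Lower as well were CREBBP (-0.54) and EP300 (-0.40) among 20 coactivator partners, SIN3A (-0.61) and RCOR1 (-0.48) among 19 corepressors, ARID4A (-0.59) and ARID2 (-0.40) among 11 ARID genes, and KDM6A (-0.84) among 21 JmjC genes. The medians of these lists were -0.16, -0.16, -0.03, -0.27 and -0.07, against 0.04 over all genes. NCOA7 (0.60) among the coactivator partners, VDR (3.58) among 31 nuclear receptors and DNMT1 (0.28) among 19 HBP1 and Wnt genes were higher, and of 26 SWI/SNF subunits 1 was lower, ARID2, which is also an ARID gene. VDR was near the floor, at 0.0920 ± 0.0556 CPM in Chow+T and 1.14 ± 2.12 CPM in WSD+T, where its SD exceeded its mean.

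Between degenerating and MI libraries, 9.82% of all genes were higher and 4.45% lower at an unadjusted p under 0.05, and 7 of 31 nuclear receptors were higher and 0 lower, with a median of 0.33 against 0.02 over all genes. They included VDR (4.68), NR3C1, the glucocorticoid receptor (4.05), NR4A3 (2.47) and NR3C2 (1.93). The leukocyte and macrophage markers given above were higher in the same contrast, and their part in these values was not tested. JmjC genes had 3 of 21 higher, KDM6B (0.62), KDM2B (0.67) and KDM3A (0.56), a relative of JMJD1C, and KDM4A lower (-0.41). Of 19 corepressors 3 were higher (HDAC9, 2.43, HDAC5, 0.81, and BCOR, 0.79), of 21 SKI and SMAD genes 3 (ID1, 1.43, TGIF1, 0.54, and SMURF2, 0.48), and of 19 HBP1 and Wnt genes 4, among them LEF1 (4.80), CCND1 (1.94) and TCF7 (1.72), with CDKN1A lower (-0.91). Some of these genes were low or widely spread. In WSD+C, LEF1 averaged 7.23 ± 15.8, TCF7 22.7 ± 41.7 and HDAC9 1.39 ± 1.37 CPM. Of 20 coactivator partners 1 was lower (NCOA5, -0.37), and 0 of 11 ARID genes and 0 of 26 SWI/SNF subunits differed in either direction.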

How the data were processed

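RNA of luteinized granulosa cells from 19 animals was sequenced from polyA-selected libraries without strand information, per the labels' protocols. The deposited table gives raw counts of reads for each gene, made by the authors with Trimmomatic and STAR per the submitters' processing notes. Because tool versions, build and annotation were not given in the sources used here, no coordinates or sequences are printed. Reads of overlapping antisense genes cannot be told apart. The table holds 32386 genes and 4 classes of reads outside genes, which took 30.9% to 50.9% of reads and were left out. The labels call the samples biological replicates and give no batch. Sample numbers follow sample order and pair nothing.

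Counts were analysed with edgeR 4.0.16 in R 4.3.3: filterByExpr (minimum count 10, minimum total 15) left 15019 genes for the treatment fit of all 19 libraries and 14976 for the fit of oocyte class with treatment as a term (18 libraries, without GV). TMM scaling and robust two-sided quasi-likelihood tests with Benjamini-Hochberg adjustment over all genes at 0.05 were used. CPM are TMM-scaled, and log2 CPM use a prior count of 1. Correlations were tested two-sided with 100000 permutations of values from which group means had been subtracted, which makes these p-values approximate. Named genes are the 9 members, at most 4 genes of smallest p per list and comparison, and the genes of highest r; others are marked where they appear. On simulated data the treatment fit recovered 26.5% of genes changed by 1 and 97% of those changed by 2 log2 units (14865 genes, Chow+T minus Chow+C). The simulated spread was the same for every gene and smaller than the common spread fitted here (biological coefficient of variation 0.583). These shares therefore cannot be taken as the recovery in the real libraries. DESeq2 1.42.0, limma 3.58.1 (voom), 2 other scalings, no filter, covariates and left-out libraries were the alternatives. The members and lists were chosen with earlier results of these data known.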

Additional observations from a re-analysis of the deposited data

Results flagged for a closer look

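In 3 of 36 combinations of gene and treatment group tested for a single library far from the rest (Dixon's test at 95%, which flags about 1 in 20 groups by chance), the library was WSD+C 4 each time. It held 224.616 CPM of ARID1A against 107.5 to 135.4 CPM in the other 4 WSD+C libraries, 134.208 CPM of JMJD1C against 29.0 to 45.1 CPM, and 76.822 CPM of NCOA3 against 25.5 to 31.5 CPM. The same library held the highest erythroid, leukocyte, lymphocyte, oocyte and theca and stroma marker sums and the lowest granulosa sum. The part of these in the 3 values was not tested.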

How the results depend on the processing

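Of the 54 tested differences, 0 passed an adjusted 0.05 in any of their 28 alternatives; the other 18, in the contrasts that chose the genes, were not tested. Leaving out 1 library gave 1.05 to 1.83 for ARID5B and 0.82 to 1.56 for JMJD1C in Chow+T minus Chow+C, lowest without Chow+T 3. Of the 54 tested differences, 28 changed sign in some alternative (102 of 1512 values), the largest being JMJD1C in WSD+C minus Chow+C (0.56, and -0.11 without WSD+C 4) and in WSD+T minus WSD+C (-0.41, and 0.26 without it), NCOA3 in WSD+T minus WSD+C (-0.26, and 0.17 without it), ARID5B in MII minus MI (0.52, and -0.04 without Chow+C 4) and ARID1A in degenerating minus MI (0.26, and -0.08 with the leukocyte covariate). Where edgeR called 0 genes of the table, DESeq2 called 5 for Chow+T minus Chow+C, 3 for WSD+T minus Chow+C, 4 for WSD+T minus Chow+T, 3 for the interaction, 6 for MII minus MI and 801 for degenerating minus MI. For degenerating minus MI, edgeR's own count, 0 in the full fit, was 0 to 226 with 1 library left out (226 without Chow+T 1), 1 without Chow+C 2, WSD+C 4 and WSD+T 6, and 574 with no treatment term. The 2 relations of members with library measures became 0 when group means were not subtracted. Genes at an unadjusted p under 0.05 ranged, with 1 library left out, over 495 to 1744 for Chow+T minus Chow+C (1079 with all), 303 to 1206 for WSD+C minus Chow+C (763), 482 to 1720 for WSD+T minus Chow+C (1014), 389 to 1256 for WSD+T minus Chow+T (747), 388 to 1246 for the interaction (679), 271 to 1013 for MII minus MI (586) and 951 to 3165 for degenerating minus MI (2136). With the leukocyte covariate the last was 311, and with no filter WSD+C minus Chow+C had 1410 and WSD+T minus WSD+C 1329 (579); voom gave 294 and 226 for those. The causes were not tested. No paired analysis was possible because the labels give no replicate numbers shared across groups. Every member was at 21.9 CPM or more in each library.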

Other observations

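JMJD1C was 1 of 10 genes, noticed after the values were seen, whose lowest degenerating library exceeded its highest MI library, and the gap was widest in it (1.23-fold). The others were TGIF1 (1.21-fold, a SMAD corepressor), MYLIP, NR4A3, MXD1, TRIB1, HSPA2, ZFP36L1, SIAH2 and GPRC5A. TGIF1 lay at 37.3 to 59.9 CPM in MI and 72.7 to 101 CPM in degenerating libraries, and MXD1, a repressor that competes with MYC for MAX, at 12.7 to 18.4 and 21.0 to 42.7 CPM. ZFP36L1, which promotes decay of AU-rich mRNAs, lay at 57.0 to 133 and 143 to 435 CPM. None of the 10 passed the edgeR adjusted threshold for degenerating minus MI (adjusted p = 0.164 to 0.283). JMJD1C was a chosen gene, and these ranges take no account of treatment, so its place among the 10 is a description only.

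In the reference annotation T2T-MMU8v2.0, used here for gene order alone, ARID5B and JMJD1C lie on chromosome 9 with 6 protein-coding genes between them. After subtraction of group means they had r = 0.35 over 19 libraries at a permutation p of 0.144 (0.1995 adjusted over 36 pairs) and rho = 0.36 at 0.129 (0.186 adjusted), and r was 0.09 without Chow+C 4 and Chow+T 3.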
